A study of Gallus gallus with 16 samples.

Results

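The heat shock proteins and chaperones described here are the genes whose symbol in the deposited count table marks them as an HSP, DNAJ, TRiC chaperonin (CCT or TCP1), BAG or heat shock factor (HSF) gene, or as one of the co-chaperones STIP1, AHSA1 and FKBP4, in posterior eye tissue of the chick. The names alone chose them, not the measured values. They were 77 of the 17108 genes in the table. Of these, 69 had at least 10 counts in at least 4 of the 16 libraries and entered the tests, among 11334 genes tested in all. The 8 that did not were HSPB1, HSPB3, HSPB7, HSF4, HSF5, DNAJB8, DNAJC30 and a second row of HSPE1. HSPB1 came closest, with 10 or more counts in 2 libraries.

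Retina, retinal pigment epithelium (RPE) and choroid were collected together from the right eye of male Leghorn/New Hampshire chicks, and each of the 4 groups held 4 chicks with 1 library each. Control chicks wore no lens and were separate birds, not fellow eyes. All other chicks wore a translucent occluder over the right eye for 7 days from post-hatch day 5, which deprives the eye of form vision and makes it myopic (form deprivation myopia, FDM), and were collected at its removal (FDMR 0 h) or after 6 h or 24 h of normal vision (FDMR 6 h and FDMR 24 h). The 4 chicks of a group had been picked from 8 for similar axial length. Control, FDMR 0 h and FDMR 24 h eyes were collected at about 10 am and FDMR 6 h eyes 6 h later in the day, so recovery time and hour of collection cannot be told apart at 6 h. As to age, day 20 after hatching stands in the labels (21 for FDMR 24 h), whereas the methods place the end of occlusion on day 12. FDMR 24 h chicks were thus a day older than the others, and their recovery included a night in the dark. Age and that night cannot be told apart from recovery time at 24 h.

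Chaperones bind unfolded or partly folded proteins and let them fold, refold or be passed on for degradation. HSP70 proteins work in cycles of ATP binding with J-domain partners (the DNAJ proteins) and with exchange factors such as the HSP110 and BAG proteins, HSP90 acts later on a narrower set of clients, and TRiC and HSP60 enclose a protein in a chamber. Each compartment has its own set: HSPA8 and HSP90AA1 serve the cytosol, HSPA5 (BiP) and HSP90B1 (GRP94) the endoplasmic reticulum (ER), and HSPA9 and HSPD1 the mitochondrion. Heat shock factors switch on the cytosolic genes when unfolded protein accumulates, the unfolded protein response does so for the ER genes, and in the retina photoreceptors place a heavy demand on the ER because they renew their outer segments continuously.

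Counts on genes ranged from 1553717 in FDMR 24 h chick 29 to 4816425, with the second-lowest library at 3039798. Markers of retina, RPE and choroid were all present: the summed level of the rod markers was 2076 to 3513 counts per 1000000 counts on genes (CPM), of the RPE markers 901 to 1272 CPM and of the endothelial markers 426 to 700 CPM. The cone markers stood at 6428 to 7473 CPM in control, 6381 to 7194 at FDMR 0 h, 4513 to 5108 at FDMR 6 h and 5924 to 7209 at FDMR 24 h, and 4 of the 6 were lower at 6 h than at 0 h by edgeR's quasi-likelihood test at a false discovery rate (FDR) of 5%. Of 16 marker lists, 7 held a gene that passed this test in some comparison. In whole tissue, fewer cells of a type and less RNA per cell cannot be told apart. Together the 69 chaperone genes took 1.25% of the counts on genes.

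**Figure D1:**
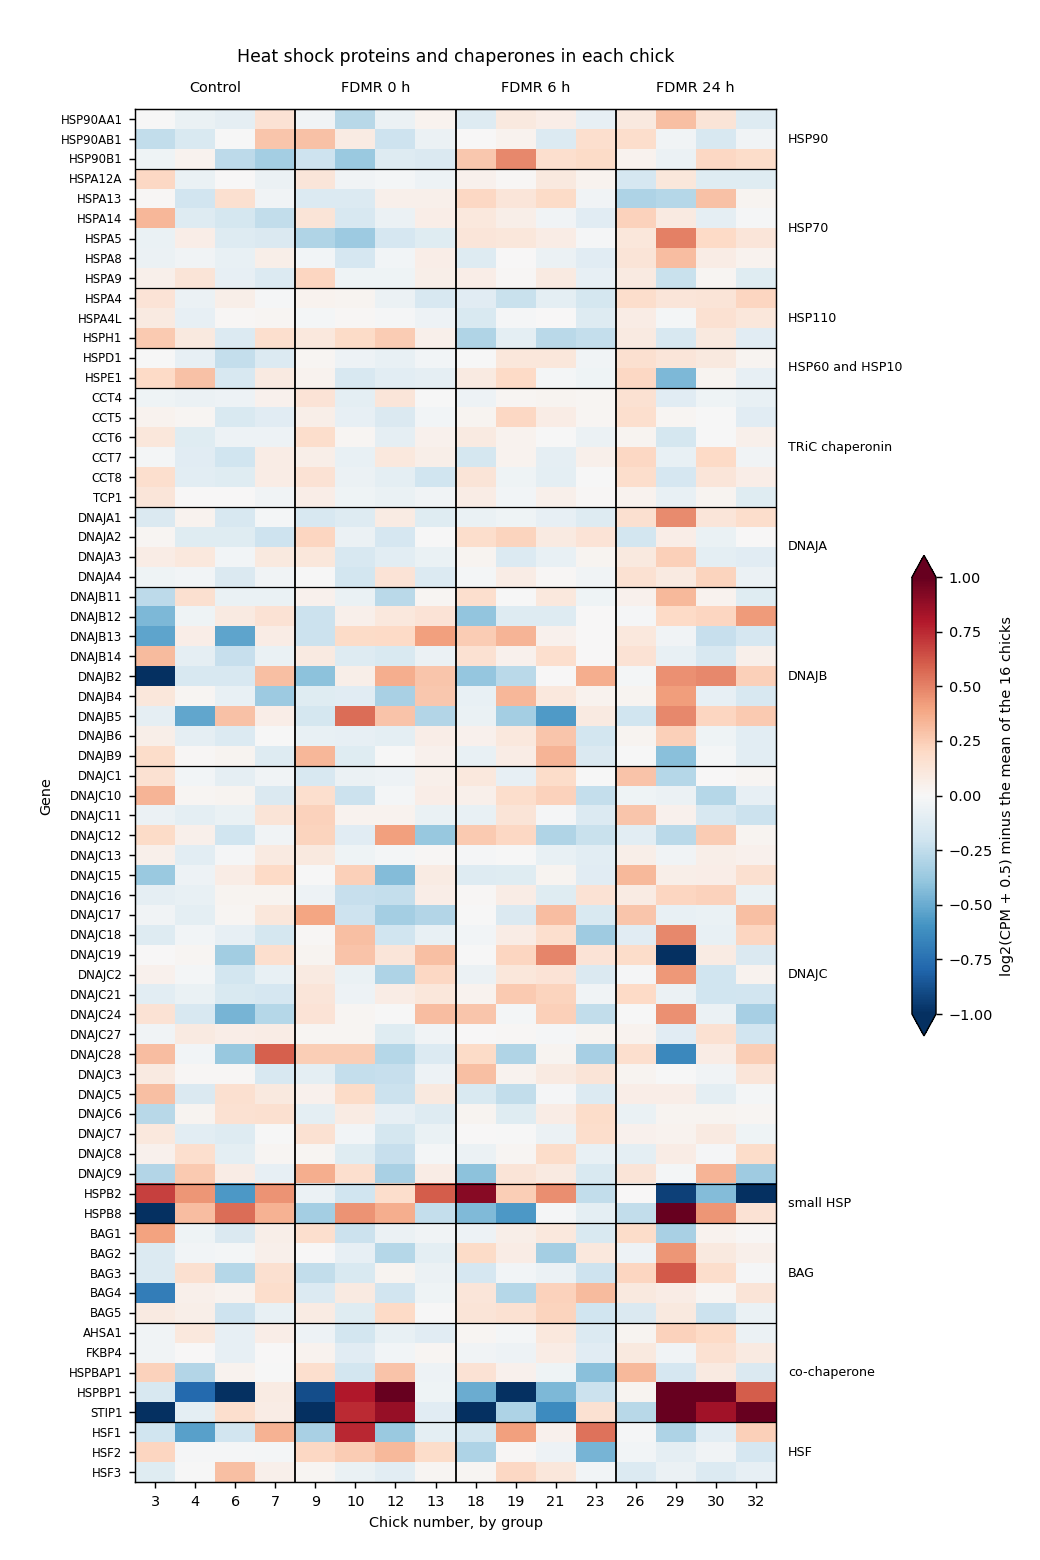
Levels of the 69 tested genes in each of the 16 chicks, as log2(CPM + 0.5) minus the gene's mean over the 16 chicks, with genes grouped by class and colours limited to 1 log2 unit either way. Most rows are pale, HSP90B1 is in shades of red in the 6 h chicks, and STIP1, HSPBP1, HSPB8, HSPB2 and DNAJB2 differ between chicks of the same group.

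Prolonged occlusion was compared with no occlusion first. None of the 69 chaperone genes differed between FDMR 0 h and control at an FDR of 5% by edgeR's quasi-likelihood test, beside 0.0265% of all genes tested (0.00882% higher and 0.0176% lower). The count was also 0 with DESeq2, with limma-voom and with the likelihood ratio test of edgeR. At an unadjusted p under 0.05 there were 2, HSF2 and HSPBP1, where 4.01% of all genes lay under that limit. Of the 69, 36 were higher and 33 lower at FDMR 0 h, beside 51.5% of all genes higher, and the median log2 fold change was 0.00, as it was over all genes. Only DNAJC21, a J-protein of ribosome assembly, had 4 occluded chicks outside the control range, at 27.3 to 30.9 CPM against 25.1 to 27.1, and the difference of 0.19 ± 0.11 (SE, log2) did not pass the test. No overlap of this kind was seen for 2.74% of all genes.

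After 6 h of recovery, in eyes that were also collected later in the day, 5 chaperone genes differed from FDMR 0 h. The ER chaperones HSP90B1, HSPA5 and DNAJC3 rose relative to FDMR 0 h, and the heat shock factor HSF2 and the HSP110 protein HSPH1 fell. In this comparison 5 of 69 (7.25%) passed the test, and 3.19% of all genes did. By direction, 3 of 69 rose beside 2.0% of all genes, and 2 fell beside 1.19%. At an unadjusted p under 0.05 there were 6, where 11.7% of all genes lay. The count of 5 became 3 without FDMR 0 h chick 9 or FDMR 6 h chick 23 and 2 without FDMR 0 h chick 10 or 12 or FDMR 6 h chick 18 or 21. The 6 h and 0 h chicks did not overlap in 5 of the 69 (7.25%), the same 5 genes, beside 8.55% of all genes.

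HSP90B1 (ENSGALG00000012726), the HSP90 of the ER, folds secreted and membrane proteins such as integrins and Toll-like receptors. It stood at 578, 515.6, 609.5 and 604.3 CPM at FDMR 0 h and at 802.2, 928.9, 749.9 and 760.6 CPM at FDMR 6 h, beside 645.9, 682.2, 554.9 and 526.6 CPM in control. Every 6 h chick was above every 0 h and every control chick. The difference from 0 h was 0.49 ± 0.09 on the log2 scale (SE, n = 4 and 4; 1.40-fold, edgeR's quasi-likelihood test, adjusted p = 0.0034). Against control it was 0.43 ± 0.09 (adjusted p = 0.0124). That second call was lost without control chick 6 or 7 or FDMR 6 h chick 19, where the adjusted p reached 0.0604. The first held without any 1 of the 16 chicks.

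HSPA5 (ENSGALG00000001000), the HSP70 of the ER and the sensor partner of the unfolded protein response, stood at 254, 243.3, 279.4 and 288.1 CPM at 0 h and at 341.4, 340.1, 331 and 311.2 CPM at 6 h. Control chicks had 299.9, 327.8, 286.3 and 283.3 CPM, between the others, and overlapped both groups. The rise over 0 h was 0.31 ± 0.08 (SE, n = 4 and 4; edgeR's quasi-likelihood test, adjusted p = 0.0474). It passed in only 5 of the 16 fits that left out 1 chick, with adjusted p from 0.00989 to 0.17, and was lost without control chick 6 or 7, FDMR 0 h chick 9, 10 or 12, any of the 4 FDMR 6 h chicks or FDMR 24 h chick 30 or 32. Against control, HSPA5 was 0.14 ± 0.08 higher at 6 h, with an adjusted p of 0.689.

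DNAJC3 (ENSGALG00000016894), a J-protein of the ER lumen that assists HSPA5, had 168.9, 153.3, 154.4 and 174.3 CPM at 0 h and 222.8, 185.7, 192.6 and 197.6 CPM at 6 h. Control chicks ranged from 161.5 to 192.2 CPM and overlapped both groups. The rise over 0 h was 0.29 ± 0.07 (SE, n = 4 and 4; edgeR's quasi-likelihood test, adjusted p = 0.0322). The call was lost without FDMR 0 h chick 9, 10 or 12 or FDMR 6 h chick 18, 21 or 23, with an adjusted p of up to 0.138. RefSeq places UGGT2 over DNAJC3, and it is not stated whether the counting used the strand. UGGT2 itself differed by -0.25 ± 0.26 between 6 h and 0 h (adjusted p = 0.809).

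Of the tested genes, 8 were classed here as chaperones of the ER: HSPA5, HSPA13, HSP90B1, DNAJB9, DNAJB11, DNAJC1, DNAJC3 and DNAJC10. DNAJB12, DNAJB14, DNAJC16 and DNAJC18, J-proteins of the ER membrane, were counted with the cytosol, nucleus or other places. Their log2 fold changes at 6 h against 0 h were -0.19, 0.15, 0.14 and -0.04, so the ER counts hold for the 8 only. At 6 h, 7 of the 8 were higher than at 0 h, 3 of them past the test, with a median log2 fold change of 0.14 beside 0.00 over all genes. Of the whole 69, 39 were higher, beside 50% of all genes (5672 of 11334). The 7 mitochondrial genes had a median of 0.01 and the 54 of the cytosol, nucleus or other places 0.00. None of the 7 mitochondrial genes passed the test here. Compared with control, 7 of the 8 ER genes were lower at 0 h, with a median of -0.06, and none passed. At 6 h, 7 of the 8 were higher than in control, with a median of 0.12. There HSP90B1 alone of the 8 passed, beside 1.55% of all genes that were called higher. The median over all genes was 0.00 in both comparisons.

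**Figure D2:**
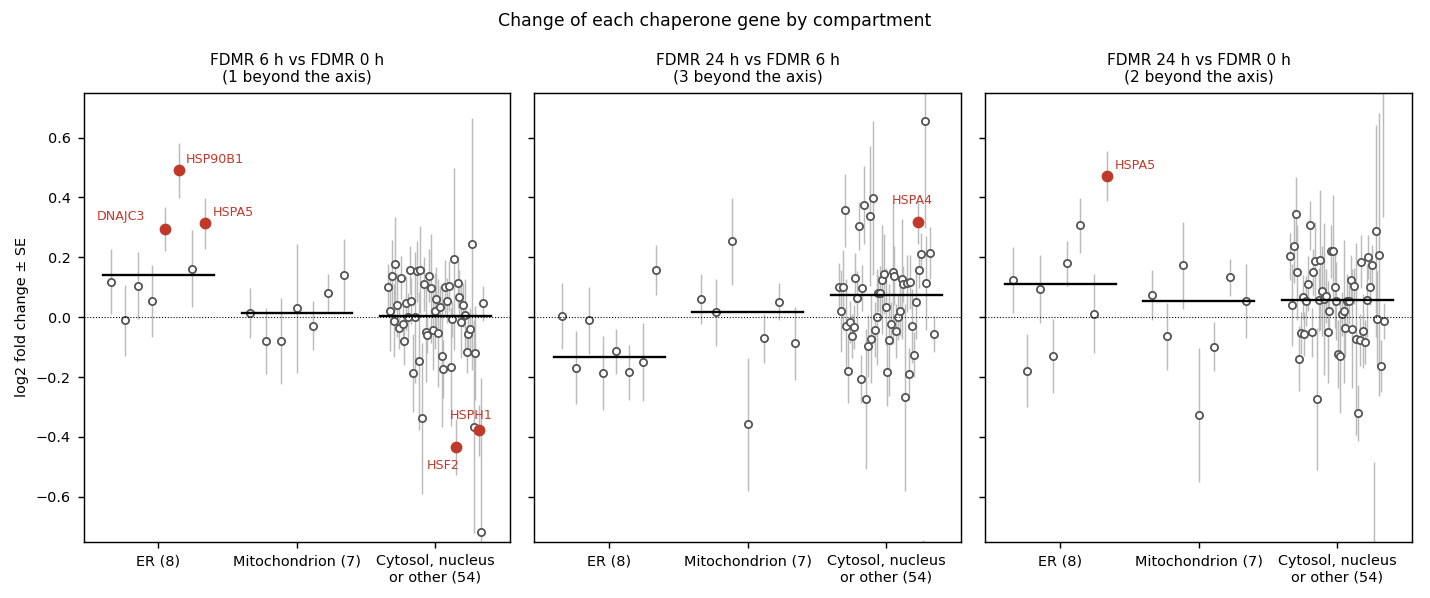
log2 fold change with its SE for each of the 69 genes, by compartment, at FDMR 6 h vs FDMR 0 h, FDMR 24 h vs FDMR 6 h and FDMR 24 h vs FDMR 0 h. Filled red points passed the test at an FDR of 5%, black lines are medians, and 1, 3 and 2 genes lie beyond the axis at 0.75. The 3 called ER genes sit at 0.29 to 0.49 in the first panel.

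Other genes of ER folding, from a list of 29 tested, moved in the same direction in part. At 6 h against 0 h, 20 of the 29 were higher, beside 50% of all genes, with a median log2 fold change of 0.12. None of the 29 was called lower, beside 1.19% of all genes, and 4 were called higher, beside 2.0%. They were PDIA4 (0.45 ± 0.08, adjusted p = 0.00238), CRELD2 (0.53 ± 0.12, adjusted p = 0.0215), PDIA3 (0.30 ± 0.07, adjusted p = 0.028) and CALR (0.32 ± 0.08, adjusted p = 0.0467). PDIA3 and PDIA4 are disulfide isomerases, and CALR is the calcium-binding lectin calreticulin. HYOU1, the HSP110-type partner of HSPA5 in the ER, was not among these 29 but among 19 other co-chaperones of HSP70 and HSP90. It rose by 0.34 ± 0.08 (edgeR's quasi-likelihood test, adjusted p = 0.021). At 6 h against control the shift of the 29 was smaller: 19 were higher, beside 50.5% of all genes, with a median of 0.03. There 2 of the 29 were called higher, beside 1.55% of all genes. Of 9 regulators of the unfolded protein response tested, none passed in any of the 6 comparisons by edgeR's quasi-likelihood test. At 6 h against 0 h, 5 of the 9 were higher and 4 lower, with a median log2 fold change of 0.05. XBP1 was at -0.03 ± 0.12 and ATF4 at -0.21 ± 0.09 in that comparison, both among the 4 that were lower. They were named after their values were seen and do not stand for the 9. Whole-gene counts show neither splicing nor translation.

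HSF2 (ENSGALG00000014870), a heat shock factor that is active in development and in nervous tissue, fell at 6 h. It stood at 116.3, 119.9, 125.6 and 114 CPM at 0 h and at 81.1, 101.1, 97.2 and 72.5 CPM at 6 h, a difference of -0.43 ± 0.09 (SE, n = 4 and 4; edgeR's quasi-likelihood test, adjusted p = 0.00981). Control chick 3 had 116.4 CPM and the other control chicks 99.2 to 99.7 CPM, so the 0 h chicks were above 3 of the 4 controls. The fall held without any 1 of the 16 chicks. At 24 h the level was 98.6, 94.3, 98.2 and 89.2 CPM, still below all 0 h chicks, with a difference from 0 h of -0.32 ± 0.09 and an adjusted p of 0.146.

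HSPH1 (ENSGALG00000017077), the cytosolic HSP110 that exchanges nucleotide on HSP70 and helps to dissolve aggregates, stood at 218.4, 231.2, 241.1 and 210.2 CPM at 0 h and at 164, 189.3, 167.9 and 171.5 CPM at 6 h. Control chicks had 242.5, 216.7, 183.9 and 227.4 CPM, and only control chick 6 reached into the 6 h range. The fall from 0 h was 0.38 on the log2 scale, with an SE of 0.09 and an adjusted p of 0.0159, and from control it was 0.33 with an adjusted p of 0.0448. The first was lost without FDMR 0 h chick 10 or 12 or FDMR 6 h chick 18 or 21, with an adjusted p of up to 0.0583. The second was held in 6 of the 16 fits, being lost without control chick 3, 4 or 7, FDMR 0 h chick 9, 10 or 13, FDMR 6 h chick 18, 21 or 23 or FDMR 24 h chick 32, with an adjusted p of up to 0.139. HSP90B1 and HSPH1 were the only 2 of the 69 called at 6 h against control (2.90%), beside 2.74% of all genes, 1 higher (1.55% of all genes) and 1 lower (1.18%). Without control chick 7 neither was called, and without any other chick named in these paragraphs for the loss of either call only 1 was. In that comparison 9 had an unadjusted p under 0.05 (9.46% of all genes), and 4 had groups without overlap (6.74% of all genes). Of the 69, 40 were higher, beside 50.5% of all genes.

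Among the 19 other co-chaperones of HSP70 and HSP90, 1 was called higher at 6 h against 0 h and 1 lower, beside 2.0% and 1.19% of all genes. Regardless of size, 9 were higher and 10 lower, with a median log2 fold change of -0.01. HYOU1, named above, rose, and ST13, which links HSP70 to HSP90, fell. ST13 was at 346.8 to 377 CPM at 0 h and at 233.7 to 307.8 CPM at 6 h. The difference was -0.44 ± 0.08 (edgeR's quasi-likelihood test, adjusted p = 0.00219). ST13 was also lower than in control (-0.39 ± 0.08, adjusted p = 0.00903). Genes of the circadian clock moved in the same comparison: of 12 tested, ARNTL, NFIL3 and NPAS2 rose and PER2, PER3 and CRY2 fell at 6 h against 0 h, ARNTL by 1.66 ± 0.10 and PER3 by -1.95 ± 0.16. The part of the clock genes and of the cone markers in the chaperone results was not tested.

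**Figure D3:**
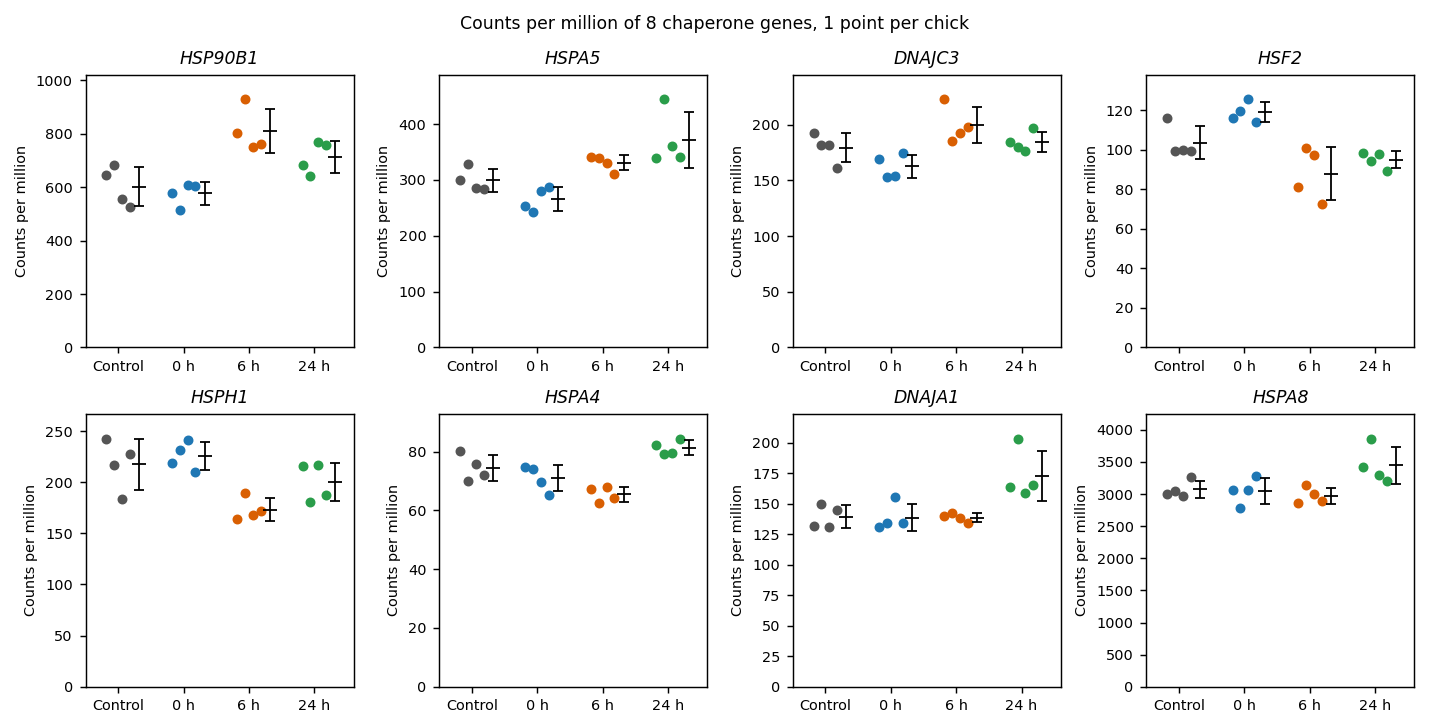
CPM in each chick (points), with the mean and SD of the 4 chicks of a group (black bars), for the 7 genes called in at least 1 test and for HSPA8, on axes that start at 0. HSP90B1 is highest at 6 h, HSF2 and HSPH1 are lowest there, and HSPA4, DNAJA1 and HSPA8 are highest at 24 h.

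Between 6 h and 24 h of recovery the share of chaperone genes that passed the test was no larger than that of all genes. HSPA4 (ENSGALG00000007273), an HSP110 protein of the cytosol, was the only 1 of the 69 that passed at 24 h against 6 h (1.45%), beside 1.94% of all genes (0.794% higher and 1.15% lower). At an unadjusted p under 0.05 there were 12, where 15.7% of all genes lay. Groups did not overlap in 8, of which 6 were higher and 2 lower at 24 h (7.75% of all genes). Of the 69, 39 were higher, beside 46.7% of all genes. HSPA4 stood at 67.2, 62.3, 67.9 and 64.3 CPM at 6 h and at 82.3, 79.1, 79.5 and 84.4 CPM at 24 h, without overlap. Chicks at 0 h had 65.1 to 74.7 CPM and control chicks 69.9 to 80 CPM. The difference was 0.32 ± 0.07 (SE, n = 4 and 4; edgeR's quasi-likelihood test, adjusted p = 0.0272). It was lost without FDMR 6 h chick 18 or 19 or FDMR 24 h chick 26, 30 or 32, with an adjusted p of up to 0.0977, and when only these 8 libraries were fitted (0.33, adjusted p = 0.0598). All 3 HSP110 genes were higher at 24 h than at 6 h, HSPA4L by 0.16 ± 0.06 (adjusted p = 0.205) and HSPH1 by 0.21 ± 0.09 (adjusted p = 0.236), and all 3 had been lower at 6 h than at 0 h. HSPA4L, the HSP110 gene with the most counts, stayed between 429.2 and 531.7 CPM in all 16 chicks.

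At 24 h against 6 h, 6 of the 8 ER genes were lower, where 46.7% of all genes were higher. HSP90B1 was at 684, 641.7, 768 and 756.4 CPM at 24 h, between its 0 h and 6 h levels in the mean, and differed from 6 h by -0.18 ± 0.09 (adjusted p = 0.347) and from 0 h by 0.31 ± 0.09 (adjusted p = 0.164). DNAJC3 was at 184.2, 180, 176.1 and 197 CPM at 24 h, and differed from 0 h by 0.18 ± 0.07 (edgeR's quasi-likelihood test, adjusted p = 0.426). None of the 8 ER genes passed the test at 24 h against 6 h.

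HSPA5 had its highest mean at 24 h, 0.16 ± 0.08 above 6 h (adjusted p = 0.368), and was the only 1 of the 69 that passed at 24 h against 0 h (1.45%), beside 1.12% of all genes (0.591% higher and 0.529% lower). In all 11 had an unadjusted p under 0.05, which 9.55% of all genes had, and in 7 of the 69 the groups did not overlap (6.33% of all genes). Its 24 h values were 338.9, 444.4, 360.7 and 341.5 CPM, all above the highest 0 h and control values. The difference from 0 h was 0.47 ± 0.08 (SE, n = 4 and 4; 1.39-fold, edgeR's quasi-likelihood test, adjusted p = 0.00673). The value of 444.4 CPM came from chick 29, and without it the difference was 0.38 ± 0.07 (adjusted p = 0.015). The call held without any 1 of the 16 chicks. Against control the difference was 0.30 ± 0.08 and missed the threshold, with an adjusted p of 0.0905. The comparisons of 6 h and of 24 h with 0 h share their 0 h chicks.

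Several cytosolic chaperones had their highest mean at 24 h without passing a pairwise test. They are examples from the 54 genes of the cytosol, nucleus or other places. Of these 54, 33 were higher and 21 lower at 24 h than at 6 h, beside 46.7% of all genes higher. DNAJA1 (ENSGALG00000023066), the main J-protein partner of HSPA8 in the cytosol, had 163.7, 203.3, 158.8 and 165 CPM at 24 h, above all 12 other chicks, whose range was 130.5 to 155.2 CPM. Its difference was 0.30 ± 0.08 from 6 h (adjusted p = 0.0628), 0.31 ± 0.08 from 0 h (adjusted p = 0.0895) and 0.29 ± 0.08 from control (adjusted p = 0.0878). Without chick 29 these were 0.23, 0.23 and 0.22, with adjusted p of 0.135, 0.213 and 0.210. DNAJA1 overlaps SMU1 in RefSeq. HSPA8, the constitutive cytosolic HSP70 and the chaperone with the most counts, was at 3423, 3864, 3290.5 and 3206 CPM at 24 h and at 2861, 3142, 3001 and 2888 CPM at 6 h, again without overlap, a difference of 0.21 ± 0.07 (adjusted p = 0.134). Control and 0 h chicks spanned 2790.1 to 3278 CPM and overlapped the 24 h group. BAG3, which couples HSP70 to small heat shock proteins in selective autophagy, was at 83.8, 110.3, 81.4 and 71.3 CPM at 24 h and at 62.4 to 70.5 CPM at 6 h (0.36 ± 0.12, adjusted p = 0.159). HSP90AA1, the stress-inducible cytosolic HSP90, was at 2251, 2584, 2295 and 1919 CPM at 24 h and overlapped every group. DNAJA2, of the same class as DNAJA1, went the other way. It was at 144.8 to 158.7 CPM at 6 h and at 119.9 to 142.2 CPM at 24 h, without overlap. The difference was -0.21 ± 0.08 (edgeR's quasi-likelihood test, adjusted p = 0.216).

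Over the whole recovery series, an F-test across FDMR 0 h, 6 h and 24 h called 6 of the 69 (8.70%), beside 3.71% of all genes, and 14 had an unadjusted p under 0.05, beside 14.8%. They were HSPA5 (adjusted p = 0.00594), HSP90B1 (adjusted p = 0.0096), HSF2 (adjusted p = 0.0183), HSPA4 (adjusted p = 0.0398), HSPH1 (adjusted p = 0.0406) and DNAJA1 (adjusted p = 0.0409). HSPA5 and HSP90B1 passed in all 16 fits that left out 1 chick, HSF2 in 13, HSPH1 in 8, HSPA4 in 6 and DNAJA1 in 4. The count fell to 2 without FDMR 0 h chick 10 or FDMR 6 h chick 18, and to 3 without FDMR 0 h chick 12, FDMR 6 h chick 21 or 23 or FDMR 24 h chick 32.

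At 24 h against control none of the 69 passed edgeR's quasi-likelihood test, beside 1.33% of all genes (0.45% higher, 0.882% lower). An unadjusted p under 0.05 was found for 9, where 13.8% of all genes had one. DESeq2 called 3 (DNAJA1, HSPA5 and HSPD1), edgeR's likelihood ratio test 2 and limma-voom 0. The shares of all genes called by these methods are not given here, so these counts cannot be read as particular to the chaperones. Regardless of size, 49 of the 69 were higher and 20 lower, with a median log2 fold change of 0.069, whereas 50.1% of all genes were higher. In 4 the groups did not overlap, as in 6.31% of all genes. Against 0 h, 45 of the 69 were higher at 24 h, beside 50.3% of all genes. Leaving out 1 chick or taking another method gave 43 to 52 against control and 38 to 48 against 0 h. These genes share libraries and are not independent of each other. HSPD1, the mitochondrial chaperonin HSP60, was at 253.9, 246.5, 242.5 and 231.2 CPM at 24 h and at 192.8 to 226 CPM in control, without overlap (0.21 ± 0.06, adjusted p = 0.117), and the 6 h chicks, at 222 to 245.4 CPM, overlapped both.

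In several classes no gene passed the test in any comparison. The 6 TRiC subunits tested, which fold actin and tubulin, had log2 fold changes from -0.08 to 0.15 over all 6 comparisons, none passed the test, and TCP1, the subunit with the most counts, lay between 199.5 and 236.1 CPM in all 16 chicks. Among the mitochondrial genes, HSPE1, the HSP10 lid of HSPD1, was 0.20 ± 0.12 lower at 0 h than in control, which did not pass, with 39.1 to 44.9 CPM against 39.1 to 53.8 CPM, and without control chick 4 the difference was -0.13. DNAJC19, of the mitochondrial import motor, showed a difference of -0.36 ± 0.22 at 24 h from 6 h (adjusted p = 0.446), which rested on chick 29: it had 4.65 CPM, from 7 counts, and the other 24 h chicks 13.1 to 16.6 CPM. Without chick 29 the difference was -0.17. FKBP4, an immunophilin of steroid receptor complexes and the co-chaperone with the most counts, lay between 290.7 and 349.4 CPM. The mitochondrial partner TRAP1, the HSP90 of that compartment, was not chosen by the name rule but stood in a list of other heat shock genes, where it was the only one of 8 tested that passed: it was at 80.7 to 91.5 CPM at 6 h and at 132, 93.7, 124.4 and 110.3 CPM at 24 h (0.45 ± 0.09, adjusted p = 0.0103).

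Among the J-proteins, none of the 4 DNAJA and 9 DNAJB genes passed a pairwise comparison, and of the 21 DNAJC genes only DNAJC3 did. DNAJB6, which suppresses aggregation of polyglutamine proteins and has the most counts of its class, lay at 164.2 to 225.3 CPM, and DNAJC7, the DNAJC with the most counts, at 168.5 to 214.5 CPM. DNAJB13, known from sperm and cilia, was low, at 3.64 to 7.43 CPM, and was 0.38 ± 0.23 higher at 0 h than in control, which did not pass the test. DNAJC28 was 0.29 ± 0.23 lower at 6 h than in control (adjusted p = 0.865), and without control chick 7 the difference was -0.10. DNAJC10, a disulfide reductase of the ER, was 0.19 ± 0.12 lower at 24 h than in control (adjusted p = 0.514), with overlap, and without control chick 3 the difference was -0.09.

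Neither of the other 2 heat shock factors tested passed in any comparison. HSF1, the main factor of the stress response in mammals, had only 5 to 28 counts per library (2.76 to 7.48 CPM), which limits what can be seen of it: its largest difference was 0.38 ± 0.31 at 6 h from control (adjusted p = 0.866), which ranged from 0.23 without control chick 4 and 0.24 without FDMR 6 h chick 23 to 0.61 without control chick 7. HSF3, a heat shock factor of the stress response in birds, lay at 69.7 to 93.8 CPM in control and 69 to 73.1 CPM at 24 h (-0.17 ± 0.09, adjusted p = 0.393). Control chick 6 had the 93.8 CPM and the other controls 69.7 to 78.9 CPM, and without it the difference was -0.09. The 24 h chicks were below all 6 h chicks, at 74.5 to 87.8 CPM.

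The name rule does not cover some small heat shock proteins, such as CRYAB. Of those it chose, only 2, HSPB2 and HSPB8, had enough counts to test. HSPB8, the partner of BAG3, had the most counts of the class and was at 4.76, 21.4, 25.5 and 21.9 CPM in control, 13.4, 23.6, 22.2 and 14.5 at 0 h, 12.5, 11.4, 17 and 16 at 6 h and 14.3, 37.2, 23.4 and 19 at 24 h. Groups overlapped throughout, and its largest difference, 0.66 ± 0.36 at 24 h from 6 h, had an adjusted p of 0.385 and was 0.42 ± 0.36 without chick 29. HSPB2, a small heat shock protein of muscle, had 1 to 15 counts per library and was lowest at 24 h, at 0.267 to 1.73 CPM against 1.37 to 3.68 CPM at 6 h (-1.23 ± 0.49, adjusted p = 0.221). Some chaperones stood in the table under symbols that the name rule does not cover: CCT2 as LRRC10, FKBP5 as FKBP51 and HSPA2 as HSP70, and none of these passed the test. HSP70 was at 199.4 ± 22.6 CPM in control, 186.9 ± 19.4 at 0 h, 207.6 ± 11.2 at 6 h and 232.1 ± 37.8 at 24 h (SD, n = 4 each), with adjusted p of 0.279 or more in all 6 comparisons by edgeR's quasi-likelihood test.

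The largest fold changes among the 69 belonged to genes that varied most between chicks of one group, and none passed the test. STIP1 (HOP), which holds HSP70 and HSP90 together, was at 1.68, 8.73, 10.6 and 9.92 CPM in control, 3.83, 16.1, 17.6 and 8.67 at 0 h, 3.68, 7.5, 5.92 and 10.5 at 6 h and 7.66, 37.9, 17.2 and 23 at 24 h. The lowest and highest of the 16 values differed by 22.6-fold, on 6 to 86 counts. In control 1 chick lay well below the others, at 1.68 CPM against 8.73 to 10.6 CPM, whereas the 6 h values were more evenly graded. The difference at 24 h from 6 h was 1.54 ± 0.50 (adjusted p = 0.142), and without chick 29 it was 1.19 ± 0.51 (adjusted p = 0.322). HSPBP1, an HSP70 exchange factor, had 2 to 21 counts, 0.643 to 1.6 CPM at 6 h and 1.98 to 5.31 CPM at 24 h, a difference of 1.55 ± 0.53 (adjusted p = 0.162).

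The spread between chicks of a group was small for most of the 69. The SD of log2 CPM within groups had a median of 0.148, beside 0.199 for all genes tested, but the chaperones also had more counts, with a median of 277 per library beside 141. It was lowest for DNAJC13 (0.062) and TCP1 (0.062) and highest for STIP1 (0.92), HSPB8 (0.66), HSPBP1 (0.65) and HSPB2 (0.52), which alone lay above the 90th percentile of all genes. Against genes of like counts, STIP1 stood at the 98.5th percentile, HSPB8 at the 96.6th and DNAJB2 at the 95.3rd, whereas HSPBP1 (67.3rd) and HSPB2 (42nd) were not far from other genes with as few counts. DNAJB2, a neuronal J-protein that feeds clients to the proteasome, was at 19.6 to 53.7 CPM in control, and its largest group difference was 0.49 ± 0.24 at 24 h from control (adjusted p = 0.37). Without control chick 3, the lowest at 19.6 CPM, that difference was 0.28 ± 0.20.

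STIP1, HSPB8 and DNAJB2 deviated from their group means together: Pearson's r over the 16 chicks was 0.86 for STIP1 with HSPB8, 0.83 for STIP1 with DNAJB2 and 0.80 for HSPB8 with DNAJB2. These are descriptions, since the genes of a chick share a library and its depth. Control chick 3 was lowest of all 16 in each of the 3 genes. Without it the values were 0.80, 0.71 and 0.56. The first principal component of the variation within groups, over all genes, held 39.5% of it and set control chick 3 farthest out. STIP1 followed that component with r = 0.95, DNAJB2 with 0.91 and HSPB8 with 0.86, and HSPA14, BAG1 and DNAJB14 ran against it with -0.87, -0.84 and -0.84. STIP1 overlaps other RefSeq genes, CAPN1 among them.

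HSPA8, HSP90AA1, BAG3, DNAJA1 and HSPA5 were picked by hand for this description, and r over pairs of all genes was not taken. Of the pairs among these genes, HSPA8 with HSP90AA1 (r = 0.92) and BAG3 with DNAJA1 (r = 0.86) deviated most closely together. The first was the highest r of all pairs of the 69. Without chick 29 the values were 0.90 and 0.74. The 2 pairs were less close to each other: r was 0.60 for HSPA8 with DNAJA1 and 0.43 for HSP90AA1 with DNAJA1, and 0.26 and 0.12 without chick 29. HSPA5 went along with DNAJA1 at 0.75 and with BAG3 at 0.72, but at 0.48 and 0.48 without chick 29. That chick, the shallowest library, was the highest of all 16 in 15 of the 69 genes, among them HSPA5, HSPA8, HSP90AA1, DNAJA1, BAG3, STIP1 and HSPB8. The next-highest numbers were 8 genes each for control chick 3 and FDMR 24 h chick 26. How often a chick was highest of the 16 was not counted over all genes. The 15 therefore cannot be read as particular to the chaperones. Within its group chick 29 was highest in 34.8% of the 69 and lowest in 31.9%, beside 33.4% and 33.0% of all genes.

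**Figure D4:**
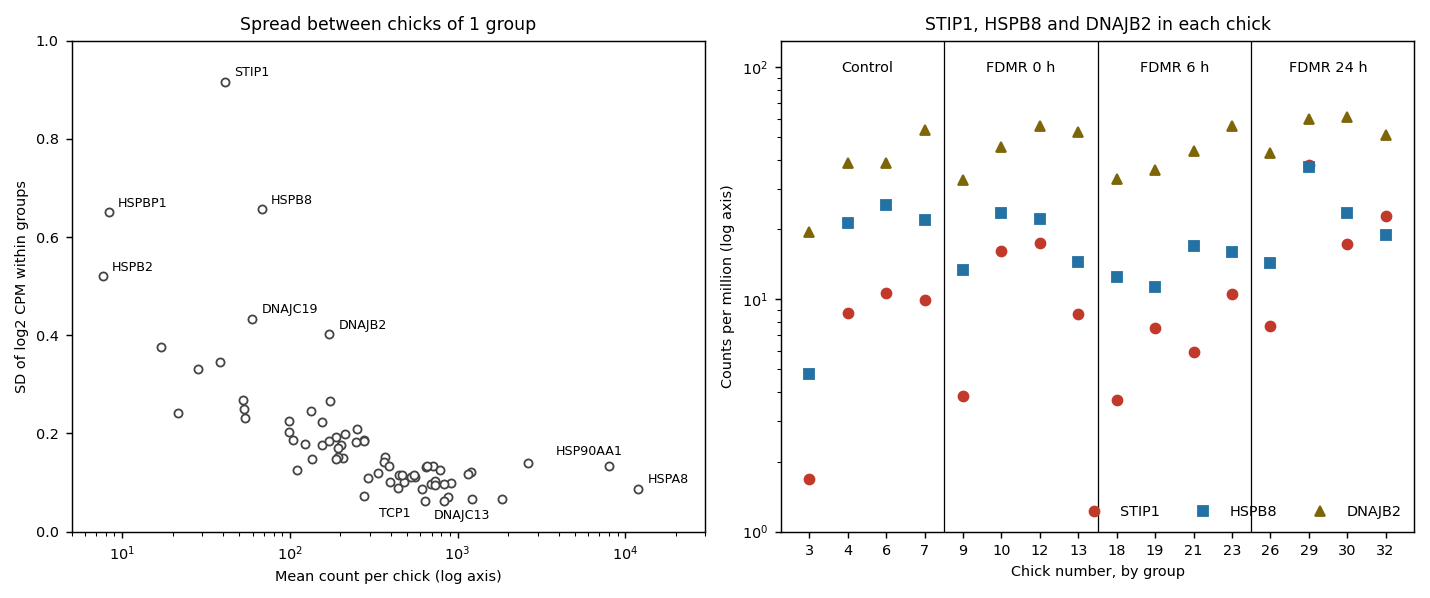
Left, SD of log2 CPM within groups against the mean count per chick for the 69 genes. Right, CPM of STIP1, HSPB8 and DNAJB2 in each of the 16 chicks on a log axis: control chick 3 is lowest in all 3 genes, and FDMR 24 h chick 29 is highest in STIP1 and HSPB8.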

How the data were processed

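Whole-gene counts from single-end 100-base stranded mRNA libraries of 16 chicks were used. The authors made these counts, according to their methods, with TopHat2, Bowtie2 and htseq-count on galGal4, and deposited them unnormalised. The strand option of the counting is not given in the sources used here. The 6 rows that name no gene held 41.9 to 45.9% of all counts and were left out.

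A gene was tested where 4 or more libraries held 10 or more counts of it, with edgeR 4.0.16 (R 4.3.3): TMM normalisation, quasi-likelihood F-tests over all 4 groups, and Benjamini-Hochberg adjustment over 11334 genes at an FDR of 5%. CPM are per 1000000 counts on genes after TMM. The common biological coefficient of variation was 12.5%. Poisson intervals (95%) run from 4.80 to 18.4 for 10 counts and from 939 to 1064 for 1000 counts, for counting error only. In simulated data with 200 genes changed by 1 log2 unit, 149 to 158 were recovered, with 2 to 12 false calls, in 11236 to 11253 genes. Smaller changes, such as all those called among the chaperones, were not simulated, so their rate of recovery is not known.

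The members, gene lists and comparisons were chosen with earlier results of these data known. The rule for named genes took members called in any test, the 3 largest rises and 3 largest falls in each comparison, the member of each class with the most counts, and up to 4 called genes of each other list. Chosen after their values were seen were DNAJA2, DNAJB12, DNAJC16, DNAJC18, DNAJC21, BAG1, DNAJB14, DNAJC13, HSPA14, XBP1, ATF4, UGGT2 and the clock genes beyond 4. Alternatives were DESeq2 1.42.0, limma-voom (limma 3.58.1), edgeR's likelihood ratio test, other size factors, other filters, fits on the compared groups only and leaving out each chick. RefSeq (GRCg7b, another build than the counts) matched 75 of the 77 symbols and served only for names and overlapping neighbours, and 33 of 67 matched tested members overlap another gene. Coordinates and promoter sequences were not analysed here. Nothing in the labels says more of replicates than that each library is 1 chick.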

Additional observations from a re-analysis of the deposited data

Results flagged for a closer look

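In 5 of the 112 groups of 4 chicks examined (28 named genes in 4 groups), or 4.46%, 1 chick lay far from the other 3. Chance alone gives about 1 in 20 such groups. DNAJA1 was at 155.2 CPM in FDMR 0 h chick 12, beside 130.5 to 134.2 CPM in the others, and at 203.3 CPM in FDMR 24 h chick 29, beside 158.8 to 165.0 CPM. DNAJB6 was at 195.2 CPM in FDMR 0 h chick 13, beside 174.3 to 176.5 CPM. DNAJC10 was at 42.5 CPM in FDMR 24 h chick 30, beside 49.1 to 50.4 CPM. HSF2 was at 116.4 CPM in control chick 3, beside 99.2 to 99.7 CPM.

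The change of HSPA4 from FDMR 0 h differed between the recovery times: it was 0.32 log2 units higher at 24 h than at 6 h, by a test of that difference itself (edgeR's quasi-likelihood test, adjusted p = 0.0272). The direct comparison of the 24 h and 6 h chicks is the same test.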

How the results depend on the processing

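No paired analysis was possible because each chick has a number of its own, shared with no chick of another group. At 24 h against 6 h the number of chaperone genes called was 1, and it was 3 with DESeq2, 2 with edgeR's likelihood ratio test and 0 when only the compared groups were fitted. At 24 h against 0 h it was 1, and 2 with DESeq2 and 2 with the likelihood ratio test. At 6 h against control it was 2, and 1 without the filter and 1 with only the compared groups. At 24 h against control it was 0, and 3 with DESeq2 and 2 with the likelihood ratio test. Leaving out each chick in turn gave 2 to 5 calls at 6 h against 0 h, 0 to 1 at 24 h against 6 h, 0 to 2 at 6 h against control and 2 to 6 in the F-test. The cause of these differences was not tested. Shares of all genes called under these alternatives are not given here, so the counts cannot be read as particular to the chaperones. No fold change of a named gene reversed. DNAJC3 at 6 h against 0 h (adjusted p = 0.0587), HSPA4 at 24 h against 6 h (adjusted p = 0.0598) and HSPH1 at 6 h against control (adjusted p = 0.0965) missed the threshold in edgeR's quasi-likelihood test on the compared groups only, as did HSPA5 at 6 h against 0 h (adjusted p = 0.0512) and HSPH1 at 6 h against control (adjusted p = 0.0584) without the filter. HSPBP1 and HSPB2 did not pass the filter in some alternatives and have no value there. The numbers of genes higher at 24 h were counted under the alternatives after the data had been seen. Genes with few counts, such as HSF1, HSPB2 and HSPBP1, could show only large changes at this depth.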
